A study of Mus musculus with 10 samples.

Results

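The genes described here are Myc and 43 further genes of the growth programme with which it is associated: its partner Max and the Max-binding repressor Mxd4, nucleolar genes for ribosome production, and genes for polyamine synthesis, nucleotide synthesis, mitochondrial folate metabolism and translation initiation. They were chosen as a list of 44 gene symbols and looked up in the symbol annotation of the array, taking for each gene the probe set with the highest mean intensity. Of the 44 genes, 38 had a probe set annotated with that symbol alone, and 34 of these passed a filter on dim probe sets, out of 7172 probe sets tested of 12488 on the array. Wdr12, Ppat, Eif4e and Eif5a lay under the filter, Npm3, Dkc1, Eif2s1, Eif4g1 and Impdh2 were paired with no probe set, and Phb was annotated only on a probe set shared with other symbols. The arrays (Affymetrix MG_U74Av2, with intensities in arbitrary units) held RNA from 6 advanced thymic tumours of mice homozygous for IkL, a hypomorphic mutation of the Ikaros gene Ikzf1 (IkL/L), from unfractionated thymocytes of 2 young IkL/L samples, and from unfractionated thymocytes of 2 wild-type (WT) samples. Both thymocyte groups came from mice 3 weeks old on a C57Bl6 background. The tumours and the IkL/L thymocytes share the mutation, and the labels give neither age nor strain for the tumour-bearing mice. They also do not say whether the arrays of a group came from separate animals, so the p-values measure the spread between these arrays only.

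MYC is a transcription factor that binds DNA as a pair with MAX at the E-box CACGTG, and MXD proteins compete for MAX and repress the same kind of site. Genes that MYC is known to activate include those that make ribosomes: RNA polymerase I transcribes the rRNA precursor in the nucleolus, small nucleolar ribonucleoproteins (snoRNPs) of the box C/D and box H/ACA classes modify it, and assembly factors and RNA helicases fold and cut it into the subunits. In the thymus Myc is induced in proliferating immature thymocytes, and MYC activation downstream of NOTCH1 is a well-known feature of T-cell leukaemia.

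Every array had been scaled to a trimmed mean intensity between 300.17 and 300.21, and the array medians lay between 79.8 in tumour 4 and 113.3 in tumour 6. Chip lot, hybridization day and fluidics run, the last inferred from hybridization times, largely followed the groups. Tumours 1 to 5 were hybridized to chips of 1 lot, and tumour 6 shared the other lot with all 4 thymocyte arrays. Tumours 4 and 6 shared a hybridization day with the thymocyte arrays, and tumours 1, 2, 3 and 5 were run on other days. The mutated gene itself, on an Ikzf1 probe set whose place relative to the mutation is not given in the sources used here, read 151 to 388 in the tumours, against 559.5 and 264 on the IkL/L arrays and 626 and 401 on the WT arrays; the limma difference between tumours and all thymocytes was -1.02 ± 0.31 on the log2 scale (SE, adjusted p = 0.0831).

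Against all 4 thymocyte arrays, the tumours had higher Myc and higher levels of 9 of the 22 tested genes of rRNA synthesis and ribosome assembly. The genes that rose were Myc, the nucleolar factors Nolc1 and Gnl3, the snoRNP proteins Fbl, Nop56, Nhp2 and Gar1, the large-subunit assembly factors Nop2, Rrs1 and Ppan, the spermidine synthase Srm, and the nucleotide-synthesis genes Cad and Nme2. None fell. These are 13 of the 34 tested genes (limma, Benjamini-Hochberg adjusted p under 0.05 over all 7172 probe sets), against 3.49% of all probe sets higher and 2.79% lower in that comparison. Their fold changes ran from 1.73 in Nop56 to 2.99 in Myc. The median log2 difference of the 34 genes was 0.80, a 1.74-fold change, against -0.03 over all tested probe sets, and 31 of the 34 differences were above 0, against 47.1% of all probe sets. In 17 of the 34 genes every tumour lay above every thymocyte array, which held for 5.45% of all probe sets, and in none did every tumour lie below, against 5.33%. At an unadjusted p under 0.05, 26 genes were higher, against 12.3% of all probe sets. The 22 genes of rRNA synthesis and ribosome assembly had a median log2 difference of 0.85.

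The count of calls depended on single arrays and on the chip lot. It came to 1 without IkL/L array 2, to 2 without IkL/L array 1 or either WT array, to 4 without tumour 1, 2 or 5, to 7 without tumour 4, to 8 without tumour 3 and to 16 without tumour 6. With chip lot as a block, or among the lot 1 arrays alone, where tumour 6 is the single tumour, no growth gene passed and the median difference was 0.42. With hybridization day as a block 1 gene passed, Myc, and the median was 0.87. The calls over all probe sets moved as well. The share called higher ran from 1.77% without tumour 5 to 5.76% without tumour 6. It was 0.209% with the lot block and 0.655% with the day block. Myc passed in all 10 fits that left out an array, Nme2 in 8, Nhp2 in 7, Rrs1 in 6, Nolc1 in 3, Cad, Fbl and Gar1 in 2 each, and Gnl3, Nop2, Nop56, Ppan and Srm in 1 each. In bulk RNA, a smaller share of cells of a type and less RNA per cell cannot be told apart.

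**Figure D1:**
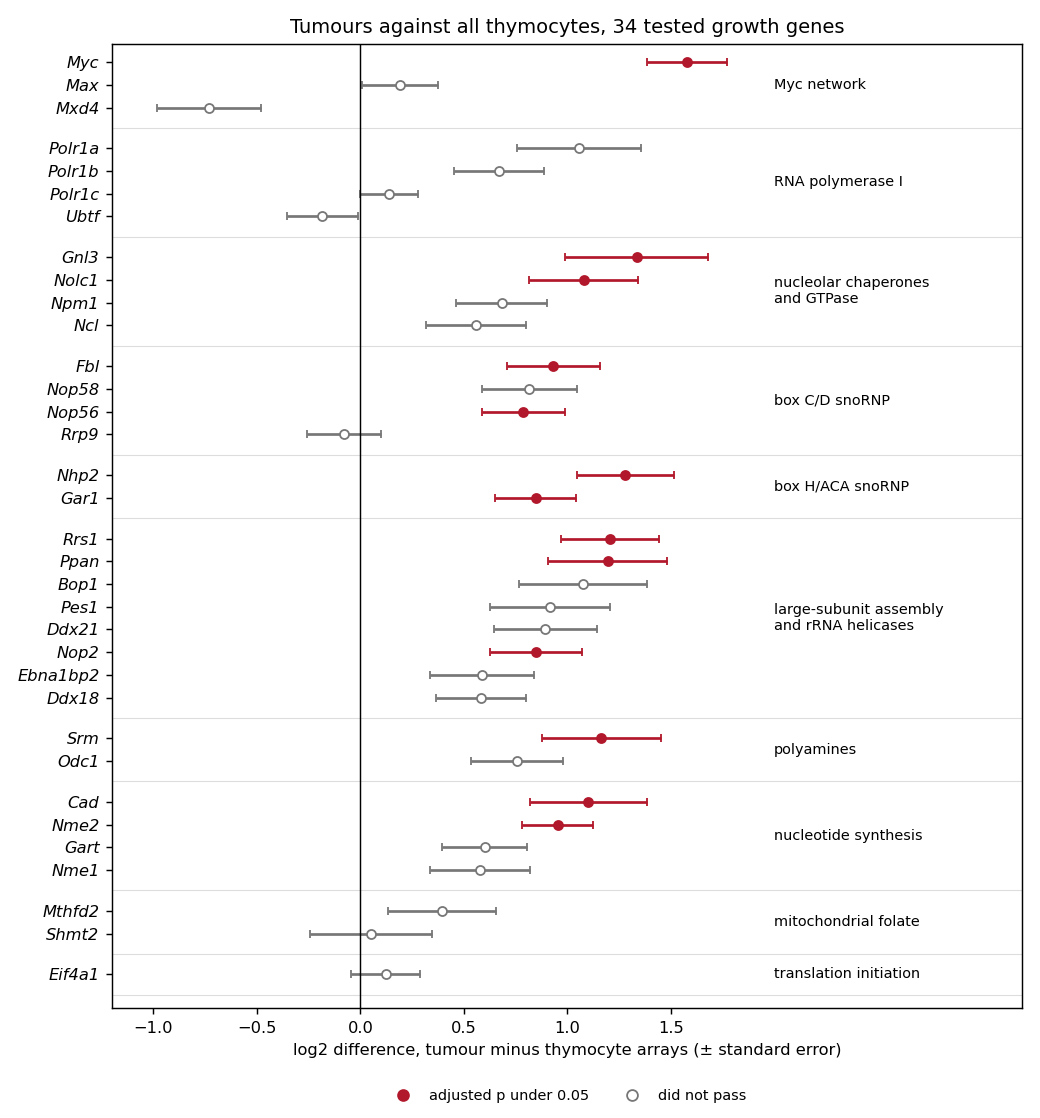
Log2 difference in intensity, tumours minus thymocyte arrays (horizontal axis, ± standard error), for the 34 tested growth genes, grouped by role down the page. Filled red points passed at an adjusted p under 0.05 (13 genes) and open grey points did not; Myc has the highest difference (1.58) and Mxd4 the lowest (-0.73).

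Within the Myc network, Myc rose and its partner and competitor did not pass. Myc read 462 in the lowest tumour (tumour 6), 682 at the tumour median and 753 in the highest (tumour 4), against 234 and 174 on the IkL/L arrays and 203 and 262 on the WT arrays. All 6 tumours lay above all 4 thymocyte arrays, and tumour 6 was the lowest of them. The difference was 1.58 ± 0.19 on the log2 scale (SE), a 2.99-fold increase (limma, adjusted p = 0.00191), and Myc ranked first among the 34 genes by p. With chip lot as a block it was 1.10 (adjusted p = 0.117), and with fluidics run as a block 1.73 (adjusted p = 0.338). Tumours ran from 471 (tumour 3) to 828 (tumour 2) for Max, with a median of 569, against 474 and 515 in IkL/L cells and 518 and 600.4 in WT cells. The Max groups overlapped, with 2 tumours above the highest thymocyte array, and the difference of 0.19 ± 0.18 had a 95% interval of -0.22 to 0.60 (adjusted p = 0.549). For Mxd4, the lowest, median and highest tumour intensities were 1603 (tumour 4), 2736 and 3779.5 (tumour 6), against 4813 and 3651 in IkL/L and 3881 and 4371 in WT cells. For Mxd4, 5 tumours lay below every thymocyte array and tumour 6 overlapped them, with a difference of -0.73 ± 0.25 that missed the threshold (adjusted p = 0.117). Without tumour 6, Mxd4 passed as lower (adjusted p = 0.0474).

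**Figure D2:**
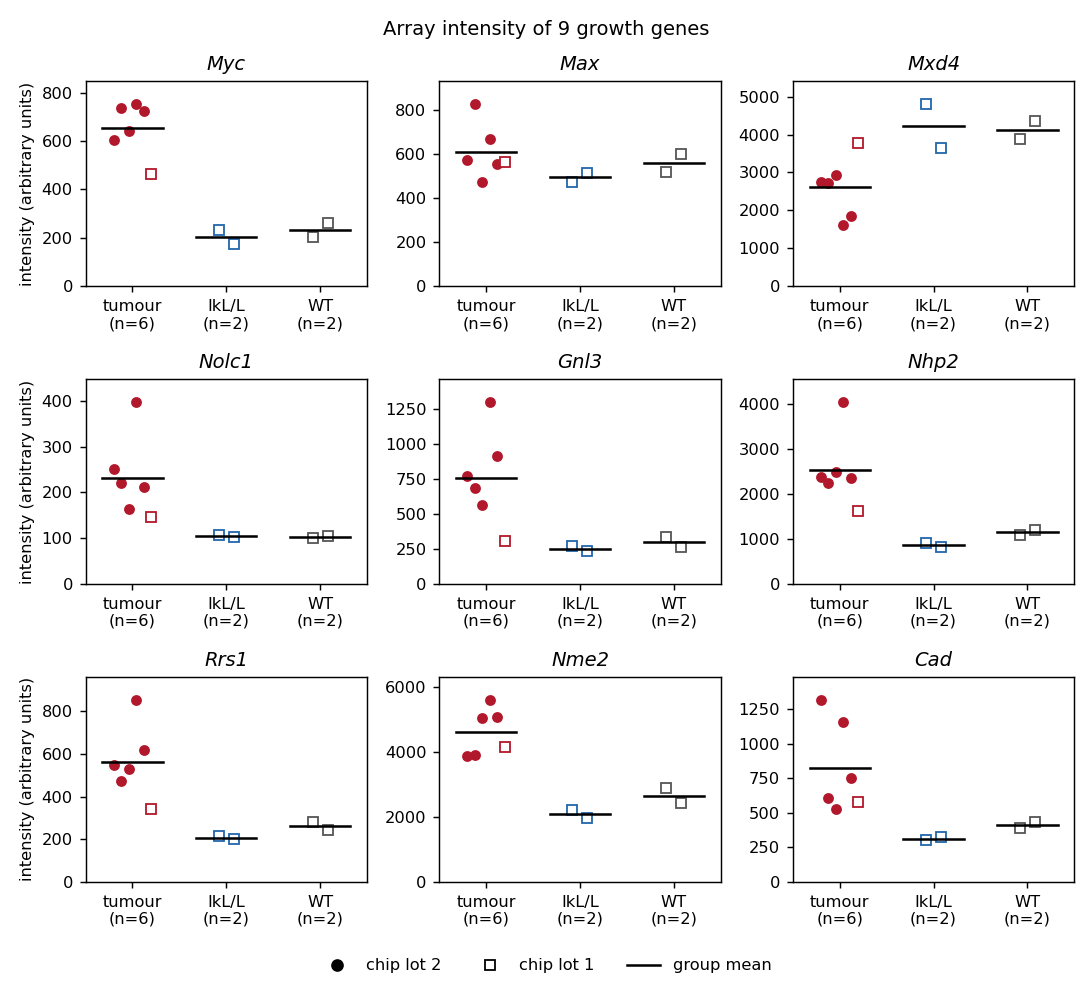
Intensity in arbitrary units (vertical axes, starting at 0) of 9 growth genes in tumours (n = 6), IkL/L thymocytes (n = 2) and WT thymocytes (n = 2), 1 point per array, with the group mean as a line. Filled circles are chips of lot 2 and open squares chips of lot 1; tumour 6, the open square among the tumours, is the lowest tumour for Myc, Nolc1, Gnl3, Nhp2 and Rrs1 and still lies above all thymocyte arrays for Myc, Nolc1, Nhp2, Rrs1, Nme2 and Cad.

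None of the 4 tested genes of RNA polymerase I and its activator passed. Polr1a encodes the largest subunit of the enzyme. Polr1a read 304 in the lowest tumour (tumour 6), 543 at the tumour median and 785 in the highest (tumour 1), against 329.5 and 203 on the IkL/L arrays and 324 and 204 on the WT arrays. In Polr1a, 5 tumours were above all thymocyte arrays and tumour 6 fell among them; the difference was 1.06 ± 0.30 (adjusted p = 0.0667). Polr1b encodes the other large catalytic subunit. Polr1b intensity was lowest in tumour 3 (396) and highest in tumour 1 (708), with a tumour median of 495, against 384 and 380.3 in the IkL/L thymocytes and 229.8 and 326 in the WT thymocytes. The Polr1b groups did not overlap, and the difference was 0.67 ± 0.22 (adjusted p = 0.0985). For Ubtf, the lowest, median and highest tumour intensities were 1081 (tumour 3), 1357 and 1432 (tumour 6), against 1253 and 1718 in IkL/L and 1315 and 1601 in WT cells. Ubtf, the HMG-box factor that activates rRNA genes, had overlapping groups and a difference of -0.18 ± 0.17 with a 95% interval of -0.57 to 0.20. The remaining gene of the class was Polr1c, whose subunit is shared by RNA polymerases I and III. Polr1c had a difference of 0.14 with an interval of -0.17 to 0.45. Its other tested probe set had 0.40 (limma, adjusted p = 0.564).

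Among the nucleolar chaperones and the nucleolar GTPase, Nolc1 and Gnl3 rose, and Npm1 and Ncl did not pass. Nolc1 read 147 in the lowest tumour (tumour 6), 217 at the tumour median and 398 in the highest (tumour 4), against 107 and 102 on the IkL/L arrays and 101 and 105 on the WT arrays. Nolc1, a chaperone of snoRNPs in the nucleolus, was above all thymocyte arrays in every tumour, and the 4 thymocyte arrays lay close together; it rose by 1.08 ± 0.26 (adjusted p = 0.0404). Gnl3 intensity was lowest in tumour 6 (310.1) and highest in tumour 4 (1304), with a tumour median of 728, against 269 and 238 in the IkL/L thymocytes and 337 and 264 in the WT thymocytes. Gnl3, or nucleostemin, is a GTPase of proliferating and stem cells; tumour 6 overlapped WT array 1, the other 5 tumours stood apart, and the difference was 1.34 ± 0.35 (adjusted p = 0.0495). For Npm1, the lowest, median and highest tumour intensities were 5074 (tumour 1), 6663 and 9615 (tumour 4), against 4058 and 3981 in IkL/L and 4180.3 and 4608 in WT cells. Npm1, the abundant chaperone nucleophosmin, had groups that did not overlap and a difference of 0.68 ± 0.22 (adjusted p = 0.0989). Ncl, nucleolin, had the lowest difference of the class, 0.56 (adjusted p = 0.196).

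Of the 4 box C/D snoRNP genes, whose particle methylates the ribose of rRNA, Fbl and Nop56 rose. Fbl intensity was lowest in tumour 6 (2465) and highest in tumour 4 (5727), with a tumour median of 3863, against 1827 and 1585 in the IkL/L thymocytes and 2172 and 2398 in the WT thymocytes. The methyltransferase gene Fbl had no overlap between groups and rose by 0.93 ± 0.22 (adjusted p = 0.0378). Nop56 read 1616 in the lowest tumour (tumour 6), 2469.6 at the tumour median and 3064 in the highest (tumour 1), against 1319.5 and 1134 on the IkL/L arrays and 1568 and 1477 on the WT arrays. Nop56, a core scaffold protein of the particle, did not overlap either and rose by 0.79 ± 0.20 (adjusted p = 0.0472). For Nop58, the lowest, median and highest tumour intensities were 439 (tumour 1), 538 and 825 (tumour 4), against 368 and 301 in IkL/L and 296 and 343 in WT cells. For Nop58, the paired scaffold protein, every tumour was above every thymocyte array at a difference of 0.82 ± 0.23 (adjusted p = 0.0645). Rrp9, a protein specific to the U3 particle, had a difference of -0.08 with a 95% interval of -0.48 to 0.32.

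Nhp2 and Gar1, the 2 tested growth genes of the box H/ACA snoRNPs, which convert uridine in rRNA to pseudouridine, rose. Nhp2 read 1616 in the lowest tumour (tumour 6), 2358 at the tumour median and 4042 in the highest (tumour 4), against 919 and 829.7 on the IkL/L arrays and 1091 and 1193 on the WT arrays. The groups of Nhp2 did not overlap, and tumour 4 stood well above the other tumours. Its difference of 1.28 ± 0.23 (adjusted p = 0.0124) was a 2.43-fold increase. Between tumours, Gar1 varied from 2415 in tumour 3 to 4295 in tumour 4 around a median of 3463, against IkL/L readings of 2045 and 1533 and WT readings of 1943 and 2161. Gar1 likewise had no overlap and rose by 0.85 ± 0.19 (adjusted p = 0.0335). Nop10, a further H/ACA gene outside the growth list, had overlapping groups. It ran from 1981 in tumour 6 to 5178 in tumour 4, against 2940 and 2833 in IkL/L and 3896 and 2650 in WT cells.

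In large-subunit assembly, 3 of 8 tested genes rose, and all 8 differences were above 0. They ran from 0.58 in the RNA helicase gene Ddx18 to 1.21 in Rrs1. The other tested probe set of Ddx18 had 0.75 (limma, adjusted p = 0.148). For Rrs1, the lowest, median and highest tumour intensities were 342 (tumour 6), 537 and 854 (tumour 4), against 213 and 202 in IkL/L and 282 and 245 in WT cells. Rrs1, a regulator of ribosome assembly, had groups that did not overlap and rose by 1.21 ± 0.24, a 2.31-fold increase (adjusted p = 0.0178). Ppan read 278 in the lowest tumour (tumour 6), 448 at the tumour median and 744 in the highest (tumour 1), against 209 and 129 on the IkL/L arrays and 286 and 208 on the WT arrays. In Ppan, an assembly factor of the large subunit, tumour 6 overlapped WT array 1 and the other 5 tumours did not; the difference was 1.20 ± 0.29 (adjusted p = 0.0383). Nop2 intensity was lowest in tumour 6 (680.0) and highest in tumour 4 (1168), with a tumour median of 906, against 611 and 365 in the IkL/L thymocytes and 489.7 and 533 in the WT thymocytes. Nop2, an rRNA cytosine methyltransferase, had no overlap and rose by 0.85 ± 0.22 (adjusted p = 0.0495). Bop1 and Pes1, partners in the complex that processes the large-subunit rRNA, had differences of 1.07 ± 0.31 and 0.92 ± 0.29 (adjusted p = 0.0706 and 0.0935). The helicase gene Ddx21 did not overlap between groups, with a difference of 0.89 ± 0.25 (adjusted p = 0.0645), and Ebna1bp2 had a difference of 0.59 (adjusted p = 0.195).

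In polyamine synthesis, Srm rose and Odc1 did not pass. Srm read 669 in the lowest tumour (tumour 6), 1021 at the tumour median and 1844 in the highest (tumour 4), against 513 and 299.6 on the IkL/L arrays and 569.7 and 648 on the WT arrays. Srm, spermidine synthase, had groups that did not overlap and a difference of 1.17 ± 0.29 (adjusted p = 0.0433). Between tumours, Odc1 varied from 318 in tumour 3 to 677 in tumour 4 around a median of 436, against IkL/L readings of 284 and 221 and WT readings of 261 and 270.0. Ornithine decarboxylase, the product of Odc1 and the entry enzyme of the pathway, likewise had no overlap, at a difference of 0.76 ± 0.22 (adjusted p = 0.076).

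In nucleotide synthesis, Cad and Nme2 rose out of 4 tested genes. For Cad, the lowest, median and highest tumour intensities were 527 (tumour 3), 678 and 1317 (tumour 1), against 305 and 322 in IkL/L and 392 and 435 in WT cells. Cad, the multifunctional enzyme that starts pyrimidine synthesis, had no overlap and rose by 1.10 ± 0.28 (adjusted p = 0.0482). Nme2 read 3858 in the lowest tumour (tumour 1), 4590.2 at the tumour median and 5601 in the highest (tumour 4), against 2222 and 1979.9 on the IkL/L arrays and 2873 and 2426 on the WT arrays. Nme2, a nucleoside diphosphate kinase, had no overlap and rose by 0.95 ± 0.17, a 1.94-fold increase with the second smallest p of the 34 genes (adjusted p = 0.0115). Between tumours, Gart varied from 908 in tumour 2 to 1758 in tumour 4 around a median of 1068, against IkL/L readings of 792 and 633 and WT readings of 785 and 809. Gart, a multifunctional enzyme of purine synthesis, also had no overlap, with a difference of 0.60 ± 0.20 that missed the threshold (adjusted p = 0.114). The neighbouring paralog Nme1, next to Nme2 on chromosome 11, had a difference of 0.58 ± 0.24 (adjusted p = 0.182), and its other tested probe set had -0.21 (adjusted p = 0.695). The sequences of Nme1 and Nme2 were not compared here. The Nme1 probe set used carries the suffix that marks probes shared within a gene family, so the 2 signals may share transcripts. The probe sets of Polr1b, Nop58 and Srm carry the same suffix.

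The mitochondrial folate genes and Eif4a1, the single tested initiation gene of the growth list, did not pass. Outside that list, 27 other initiation genes were tested. Of these, 2 rose, against 3.49% of all probe sets, and 22 differences were above 0, with a median of 0.30. For Mthfd2, the lowest, median and highest tumour intensities were 823 (tumour 3), 1141 and 1845 (tumour 5), against 1160.2 and 816 in IkL/L and 878 and 837 in WT cells. Tumours ran from 183 (tumour 2) to 475 (tumour 6) for Shmt2, with a median of 279, against 297 and 382 in IkL/L cells and 213 and 234 in WT cells. Both genes encode mitochondrial enzymes that supply folate-bound carbon units, and both had overlapping groups, with differences of 0.40 ± 0.26 for Mthfd2 (95% interval -0.18 to 0.97) and 0.05 ± 0.30 for Shmt2 (95% interval -0.61 to 0.71). Eif4a1 read 423 in the lowest tumour (tumour 6), 563 at the tumour median and 597 in the highest (tumour 1), against 457 and 481 on the IkL/L arrays and 571 and 444 on the WT arrays. Eif4a1, the RNA helicase of the cap-binding complex, overlapped between groups at a difference of 0.12 ± 0.17, with an interval of -0.25 to 0.49.

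Further genes of the same processes were also tested. From a list of 195 other genes of the Myc network, rRNA synthesis and processing, nucleotide and folate metabolism, polyamines and initiation, 121 were tested; 12 rose, 1 fell (3.49% and 2.79% of all probe sets) and 91 differences were above 0, with a median of 0.29. Of the 12 rises, 9 lay in rRNA synthesis and processing, out of 70 tested genes with a median of 0.39. Rrp12 read 62.5 in the lowest tumour (tumour 6), 102 at the tumour median and 121 in the highest (tumour 4), against 19.9 and 21.7 on the IkL/L arrays and 95.2 and 31.8 on the WT arrays. Rrp12, a factor in the export and maturation of ribosomal subunits, overlapped at WT array 1 only. Its difference was 1.50 ± 0.30 (limma, adjusted p = 0.0187). Among thymocyte arrays Rrp12 was above the array median on WT array 1 only, so it passed the filter through the tumours. The IkL/L values lay near the floor of 16. The next by p were Rrp1b (1.14), the small-subunit processome gene Utp4 (1.07) and the RNA polymerase I cofactor gene Taf1d (1.04). Psat1, an enzyme of serine synthesis, rose by 1.23, the small-subunit factor gene Tsr1 by 1.08, the initiation factor gene Eif2s2 by 0.86 and the nucleolar gene Nifk by 0.96, with adjusted p from 0.0252 to 0.0404 over these 7 genes. Eif2s2 read below the array median on every thymocyte array, so it passed the filter on dim probe sets through the tumours only. The gene that fell was Mxi1, which encodes another MXD-family repressor. For Mxi1, the lowest, median and highest tumour intensities were 96.7 (tumour 1), 178 and 187 (tumour 2), against 360.0 and 384 in IkL/L and 362 and 271 in WT cells. The Mxi1 difference was -1.09 ± 0.22, a 2.13-fold lower intensity in tumours (adjusted p = 0.0187). Mxi1 lay below every thymocyte array in every tumour. The 5 tested genes that this list held of the Myc network all had differences below 0; after Mxi1, Mlx had -0.67 (adjusted p = 0.0732) and Mxd3 had -0.55 (adjusted p = 0.143). None of 3 other polyamine genes passed.

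The tumours were also set against each thymocyte group separately, with the same 6 tumour arrays on one side, so the comparisons share them. Against IkL/L thymocytes, the samples of the same genotype, Myc, Nhp2 and Nme2 rose and no growth gene fell, where 0.906% of all probe sets were called higher and 0.516% lower. No growth gene lay below both IkL/L arrays in every tumour, against 12.1% of all probe sets. The log2 differences were 1.68 ± 0.25 in Myc, 1.47 ± 0.29 in Nhp2 and 1.12 ± 0.22 in Nme2 (limma, adjusted p = 0.012, 0.0404 and 0.0368). Every tumour was above both IkL/L arrays in 22 of the 34 genes, against 10.4% of all probe sets, and the median difference was 0.83, against -0.05 over all probe sets. Differences above 0 numbered 30 of 34, against 45.7% of all probe sets. This count of 3 came to 10 without tumour 6, to 1 without tumour 3, tumour 5 or either WT array, to 0 without either IkL/L array and to 2 without tumour 1 or 2. Against WT thymocytes, Myc alone rose (1.48 ± 0.25, adjusted p = 0.0168), where 1% of all probe sets were called higher and 0.878% lower. Every tumour was above both WT arrays in 17 genes, against 9.17% of all probe sets, and below both in 1, Mxd4, against 8.76%. The median difference was 0.73, against -0.01 over all probe sets, and 31 differences were above 0, against 49.6%. The count was 4 without tumour 6 and 0 without either WT array. Without 1 tumour, the share of all probe sets called higher was 0.6% to 2.61% against IkL/L and 0.586% to 1.66% against WT thymocytes. With chip lot, hybridization day, fluidics module or fluidics run as a block, no growth gene passed against either thymocyte group. In those fits at most 0.251% of all probe sets were called higher against IkL/L and 0.376% against WT thymocytes. With the lot block the median difference was 0.48 against IkL/L and 0.21 against WT thymocytes, and 29 and 26 of the 34 differences were above 0.

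Young IkL/L thymocytes were compared with WT thymocytes to show the growth genes before tumours, with 2 arrays on each side. No growth gene passed in limma, where 0% of all probe sets were called higher and 0.0139% lower. None had an unadjusted p under 0.05 either, against 2.05% of all probe sets higher and 1.16% lower at that level. The median difference was -0.15, against 0.03 over all probe sets, and 12 of the 34 differences were above 0, against 54% of all probe sets. Both IkL/L arrays were above both WT arrays in 3 genes, against 21.3% of all probe sets, and below both in 12, against 18.3%. Myc read 234 and 174 in IkL/L thymocytes, against 203 and 262 in WT thymocytes, and these overlapped. The 5 smallest p-values belonged to Polr1b (0.48 ± 0.34), Srm (-0.63 ± 0.45), Shmt2 (0.59 ± 0.46), Ppan (-0.57 ± 0.44) and Nme2 (-0.33 ± 0.26), each with an adjusted p of 0.999. Srm read 513 and 299.6 in IkL/L thymocytes, against 569.7 and 648 in WT thymocytes. Nme2 read 2222 and 1979.9 in IkL/L thymocytes, against 2873 and 2426 in WT thymocytes, and IkL/L lay below WT without overlap in both genes. The median without IkL/L array 1 was -0.32 and without IkL/L array 2 it was -0.10.

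**Figure D3:**
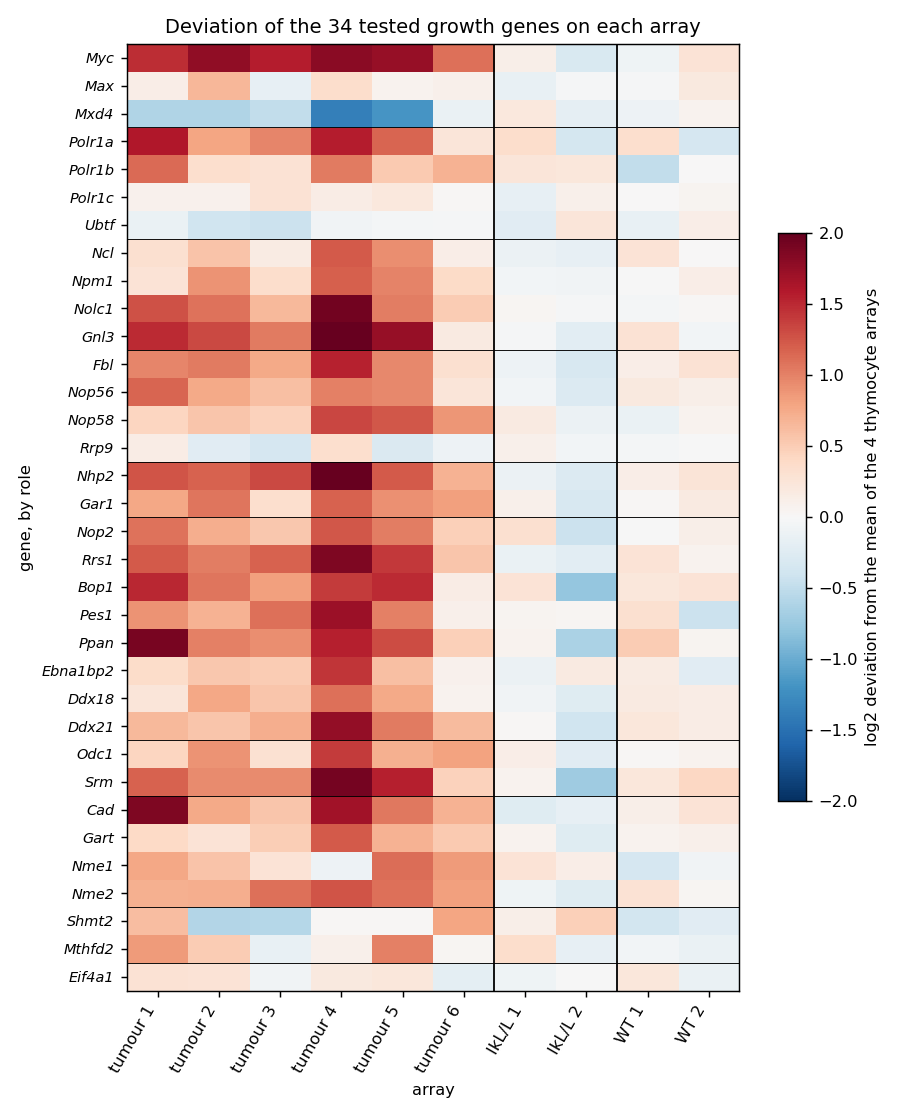
Log2 deviation of each of the 34 tested growth genes (rows, by role) from its mean over the 4 thymocyte arrays, on each of the 10 arrays (columns), with red above and blue below that mean. Tumour 4 is the highest tumour in 20 rows and tumour 6 the lowest in 18, and Mxd4 is blue in the tumours, palest in tumour 6.

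The tumours differed among themselves in how far the growth genes were raised. The median deviation of the 34 genes from the thymocyte mean was 0.77, 0.73, 0.52, 1.25, 0.998 and 0.42 on the log2 scale in tumours 1 to 6, against 0.05 and -0.20 in the IkL/L arrays and 0.09 and 0.07 in the WT arrays. Every tumour median lay above every thymocyte median, while the median over all 7172 probe sets stayed between -0.09 and 0.05. Tumour 4 was the highest tumour for 20 of the 34 genes, a place it held for 17.8% of all probe sets, and tumour 6 was the lowest for 18, against 21.6%. From 25 to 30 genes exceeded the highest thymocyte array in tumours 1 to 5, and 19 did in tumour 6, against 26.1% to 30.5% of all probe sets over the 6 tumours. Tumour 6 was also the tumour on the thymocytes' chip lot, and it had the highest double-positive marker sum of the tumours, 27942, so lot and sample cannot be told apart there. Tumour 4 shared the hybridization day of the thymocyte arrays. The SD between tumours had a median of 0.41 over the growth genes, against 0.39 over all probe sets.

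**Figure D4:**
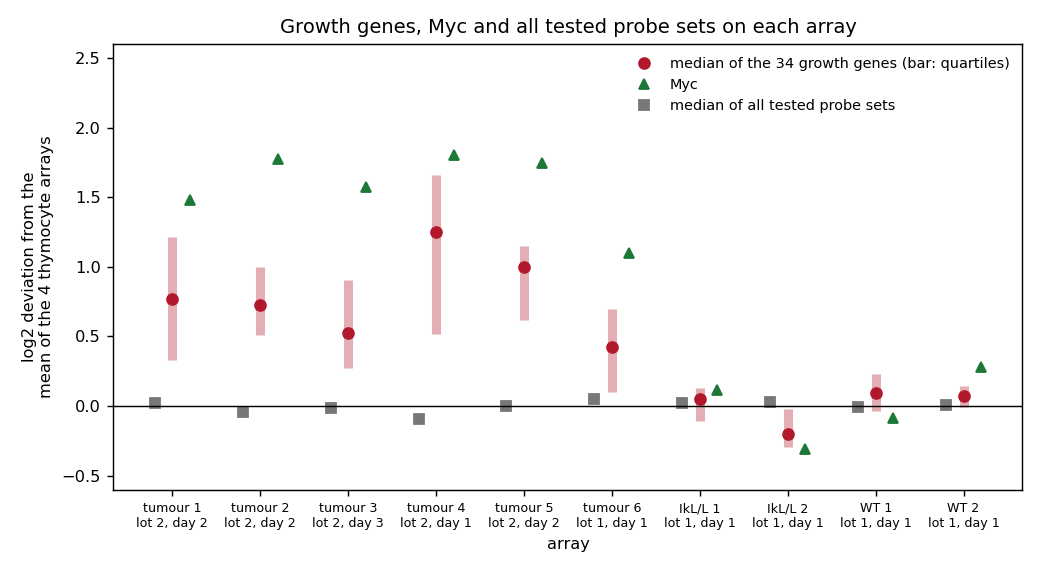
Median log2 deviation of the 34 growth genes from the thymocyte mean (red circles, bars from the lower to the upper quartile), of Myc (green triangles) and of all tested probe sets (grey squares), on each of the 10 arrays with chip lot and hybridization day. Growth-gene medians lie between 0.42 and 1.25 in the tumours and between -0.20 and 0.09 in the thymocytes, while the grey squares stay near 0.

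Marker genes of other cells moved with the same contrast. Of 8 tested macrophage markers, 6 were called higher, and the summed intensity of the 9 on the array was 9206 to 19174 in the tumours, against 3186 to 4087 in the thymocytes. Tumour 4 had the lowest macrophage sum of the tumours, 9206, and tumour 1 had the highest, with Apoe alone at 3670 and 10358 in these. C1qa, C1qb and C1qc were instead lowest in tumour 6 among the tumours, at 797, 773 and 1302. Of 8 stromal and endothelial markers, 4 were higher. Of these 4, Pdgfrb, Dcn and Mgp read below the array median on every thymocyte array. They passed the filter on dim probe sets through the tumours only. Rag1, Rag2, Cd4 and Cd8a fell among 6 double-positive thymocyte markers. The sums of these 6 were 6172 to 27942 in the tumours, against 37698 to 47899 in the thymocytes. All 4 tested thymic epithelial markers fell. Among them, Krt8, Krt18 and Ccl25 read below the array median in every tumour, so they passed the filter through the thymocytes only. The sum of 4 T-lineage markers was 16041 to 22390 in the tumours, against 21613 to 24919 in the thymocytes, and none of them passed. None of 15 genes of cycling cells passed, with a median difference of -0.17 and sums of 24608 to 41275 in the tumours, against 28988 to 34615 in the thymocytes; the sums cover 16 genes on the array, and tumour 4 had the highest. Of 3 B-cell markers 1 fell, and no granulocyte or erythroid marker passed. The part of cell makeup in the growth-gene differences was not tested.

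The promoters of the growth genes were read for the E-box bound by MYC and MAX. RefSeq windows of 300 bases (250 before and 50 after the gene start, build GRCm38.p6) were matched for 38 of the 44 genes. Myc, Fbl, Npm1, Bop1, Rrs1 and Srm had none. Where a gene had several windows, only the first listed was read. This held for Nme1, Nme2, Eif4e, Eif5a, Ubtf and Wdr12, so their matches describe 1 of several listed starts. CACGTG, which reads the same on both strands, was in 9 of the 38 windows (23.7%), against 7.24% of 27025 gene windows. Among tested growth genes CACGTG was in 6 of 28 windows (21.4%), against 11% of the 4428 genes past the filter. It was in 1 of 9 windows of genes that rose (11.1%) and in 5 of 19 of genes tested that did not pass (26.3%). Counting CACGTG or CACGCG on either strand, a wider search containing the first, 47.4% of growth genes held a match, against 15.5% of all windows. For tested growth genes the share was 50%, against 27.3% of genes past the filter. The 4 windows below belong to the tested genes with CACGTG and the smallest p, printed 5′ to 3′ on the gene's strand with the E-box in capitals; they lie at chr6:125131633-125131932 on the plus strand for Nop2, chr11:3963725-3964024 on the plus strand for Pes1, chr5:34187661-34187960 on the minus strand for Mxd4 and chr11:93968223-93968522 on the minus strand for Nme1.
Nop2: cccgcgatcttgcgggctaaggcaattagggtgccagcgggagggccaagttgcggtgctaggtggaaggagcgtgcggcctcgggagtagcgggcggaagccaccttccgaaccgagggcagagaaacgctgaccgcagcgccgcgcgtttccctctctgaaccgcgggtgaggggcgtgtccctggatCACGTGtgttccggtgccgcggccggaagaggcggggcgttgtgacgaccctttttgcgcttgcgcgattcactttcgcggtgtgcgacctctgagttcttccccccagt
Pes1: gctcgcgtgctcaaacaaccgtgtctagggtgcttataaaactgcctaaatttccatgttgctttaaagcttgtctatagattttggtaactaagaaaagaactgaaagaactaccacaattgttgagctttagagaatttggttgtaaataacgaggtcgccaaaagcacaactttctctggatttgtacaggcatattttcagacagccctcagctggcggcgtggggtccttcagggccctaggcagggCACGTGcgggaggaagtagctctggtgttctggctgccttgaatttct
Mxd4: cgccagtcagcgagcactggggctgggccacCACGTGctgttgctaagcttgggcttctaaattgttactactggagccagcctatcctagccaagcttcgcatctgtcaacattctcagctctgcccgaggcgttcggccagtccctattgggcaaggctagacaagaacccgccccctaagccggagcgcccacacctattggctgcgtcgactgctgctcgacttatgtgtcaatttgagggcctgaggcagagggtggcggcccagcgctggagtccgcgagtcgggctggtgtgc
Nme1: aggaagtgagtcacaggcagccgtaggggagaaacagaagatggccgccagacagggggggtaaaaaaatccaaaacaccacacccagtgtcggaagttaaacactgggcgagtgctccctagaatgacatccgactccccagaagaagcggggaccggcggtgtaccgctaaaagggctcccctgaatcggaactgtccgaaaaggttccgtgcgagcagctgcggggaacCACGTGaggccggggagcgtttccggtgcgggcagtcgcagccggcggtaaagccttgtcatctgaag
The E-box began 60 bases before the start in Nop2, 18 before it in Nme1 and 219 before it in Mxd4, and 3 bases into the transcript in Pes1. Of these 4 genes, Nop2 rose. Pes1 and Nme1 had positive differences and Mxd4 a negative one, and none of them passed. A link between the E-box and the direction of change was not tested. A match describes letters only, and no binding was measured here.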

How the data were processed

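The deposited table holds 1 value per probe set and array: intensity on a linear scale, scaled by the authors to a common trimmed mean (300.17 to 300.21 with 2% trimmed at each end, recomputed from the table). The summarisation software is not given in the sources used here, and the table has no detection calls. From 15.4% to 24.2% of an array's probe sets lay below the floor of 16, and the number of arrays limits the precision. Intensities were floored at 16 (the 20th percentile), log2-transformed and not renormalized. Probe sets above the array median on at least 2 arrays were tested with limma 3.58.1 (R 4.3.3), with 1 mean per group over 10 arrays (7 residual and 3.167 prior degrees of freedom) and Benjamini-Hochberg adjustment over all 7172. The combined contrast averaged both thymocyte group means. Lot, day and fluidics module came from the scanner records. Fluidics runs were inferred from the recorded hybridization times, with a new run after a gap of more than 10 minutes. Levels were not compared between genes.

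The genes and lists were chosen with earlier results of these data known. Array values are given for Myc, Max, Mxd4, every gene that passed, and up to 3 genes per role with the smallest p, plus the 5 smallest p for IkL/L against WT. Replicate numbers follow deposition order and pair nothing. Of the 38 genes on the array, 11 had more than 1 probe set. Figures were drawn with matplotlib 3.10.9.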

Additional observations from a re-analysis of the deposited data

How the results depend on the processing

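The direction of every growth-gene difference that passed was kept under each alternative run. The counts of calls moved far more. For tumours against all thymocytes, 13 growth genes were called higher; this was 5 without the filter on dim probe sets, 8 after centring each array, 17 with a variance trend and 14 after quantile normalization. It was 0 with chip lot or fluidics run as a block, 1 with hybridization day, 4 with fluidics module, and 0 among lot 1 or day 1 arrays alone. The count over all probe sets was 450; it was 294 without the filter, 53, 130, 258 and 1 with blocks for lot, day, module and run in turn, and 65 and 45 for lot 1 and day 1 arrays alone. The median of the growth genes was 0.42 with the lot block and among lot 1 arrays. Leaving out 1 array gave 1 to 16 growth genes higher, 0 to 1 lower, 145 to 764 probe sets and a median of 0.70 to 0.87.

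Against IkL/L thymocytes, no growth gene passed with lot, day, module or run as a block or among lot 1 or day 1 arrays; 1 passed with only these groups in the fit and 9 with a variance trend. The probe sets called (102) were 167 after quantile normalization, 17, 42, 21 and 0 with the 4 blocks, 8 and 20 for lot 1 and day 1 arrays, and 214 with the trend. The median was 0.48 with the lot block. Leaving out 1 array gave 0 to 10 growth genes, 7 to 332 probe sets and a median of 0.69 to 0.95. Against WT thymocytes, no growth gene passed with any of the 4 blocks or among lot 1, day 1 or run 1 arrays. The probe sets called (135) were 77 without the filter, 33, 52, 49 and 9 with the blocks, and 22, 26 and 0 for lot 1, day 1 and run 1 arrays. The median was 0.21 with the lot block. Leaving out 1 array gave 0 to 4 growth genes, 14 to 221 probe sets and a median of 0.64 to 0.78.

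For IkL/L against WT thymocytes, 1 probe set passed, against 15 without the filter, 2 with the lot block and 0 with a stricter filter, 1 probe set per gene, the module or run block, lot 1, day 1 or run 2 arrays, only these groups, or the trend. Leaving out 1 array gave 1 to 2 probe sets, no growth gene and a median of -0.32 to -0.10. No gene turned in direction in a comparison in which it had passed, or passed after turning. Against all thymocytes, 4 growth genes turned under some setting: Eif4a1 came to -0.20 with the lot block and among lot 1 arrays, -0.0043 with the day block and among day 1 arrays, and -0.28 with the run block; Ubtf came to 0.16 with the run block; Rrp9 came to 0.12 with the day block and among day 1 arrays and to 0.13 with the run block; and Shmt2 came to -0.06, -0.0962 and -0.0385 without tumour 1, tumour 6 and IkL/L array 1, within a range of -0.0962 to 0.1788 over the fits that left out an array. Nme1 came to -0.21 on its other probe set. Against IkL/L thymocytes 5 genes turned (Eif4a1, Mthfd2, Rrp9, Shmt2 and Ubtf), and against WT thymocytes 8 did (Bop1, Ddx18, Eif4a1, Max, Ncl, Polr1c, Rrp9 and Ubtf). Bop1 came to -0.11, Ddx18 to -0.09 and Ncl to -0.0076 against WT with the lot block. For IkL/L against WT, 15 genes turned, Myc among them. The causes were not tested. No paired analysis was possible because the replicate numbers follow deposition order only. With 2 arrays in each thymocyte group, a fit without 1 of them assumes that the remaining array varies like the other groups.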
